A study of Mus musculus with 3 samples.

Results

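Adult ventricular cardiomyocytes (ACMs) cultured with human interleukin-6 (IL-6) were compared with vehicle-treated ACMs by RNAseq. The count table lists 56748 genes, and the 15472 of them whose counts in the IL-6 and vehicle libraries sum to at least 10 were compared. Both libraries came from wild-type (WT) mouse hearts, with myocytes taken at 8 to 10 weeks of age. Cells were plated on laminin and then kept in serum-free medium with 0.1% BSA, 2,3-butanedione monoxime, insulin-transferrin-selenium and a lipid supplement, which vehicle-treated and cytokine-treated cells shared. IL-6 was human protein at 10 ng/mL, given for 16 h, and the vehicle, without cytokine, is labelled as 0.1% BSA. The other library of the series, from ACMs given mouse oncostatin M (OSM) at 10 ng/mL for 16 h, is set beside the pair where it shows a contrast. RNA was pooled before sequencing and each condition has 1 library, so there is no spread between replicates, no P-value is given, and every comparison here is of libraries.

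IL-6 binds the IL-6 receptor (encoded by Il6ra), and the pair then engages glycoprotein 130 (gp130, encoded by Il6st), the signal-transducing chain that most of the cytokine family uses. Cells with gp130 but little IL-6 receptor can respond through a soluble receptor, which is shed from other cells by metalloproteases. Gp130 brings Janus kinases together, these phosphorylate STAT3, and STAT3 dimers enter the nucleus and bind palindromic DNA motifs near target genes such as Socs3, whose protein feeds back to block the receptor. OSM uses gp130 as well, paired with the OSM receptor. Human IL-6 is able to act on mouse cells.

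The vehicle library held 24939980 counts, the IL-6 library 26362446 and the OSM library 30773001. A log2 ratio below is that of counts scaled by TMM, with a 95% interval that covers counting error only. The median ratio over the compared genes was -0.00 on the log2 scale. Cardiomyocyte RNA dominated both libraries, and the 12 cardiomyocyte markers summed to 14352 fpkm with vehicle and 14780 fpkm with IL-6. Myoglobin (Mb), the oxygen store of muscle, stood at 3385 and 3399 fpkm, and Myh6, the adult myosin heavy chain, had 187212 and 200746 counts. The 12 endothelial markers summed to 1271 and 1376 counts and the 12 fibroblast markers to 404 and 399 counts. Of the 12 macrophage and monocyte markers, whose sums were 14.0 and 14.9 fpkm, 6 were at 0 counts with vehicle and 7 with IL-6, C1qa, C1qb, C1qc and Ccr2 among them. Other members were detected, and Cd68 made up most of the sums, with 382 counts with vehicle and 448 with IL-6. Csf1r had 187 and 166 counts. Of the 5 markers compared, 2 had an interval wholly above 0 and 1 wholly below 0. No T cell, B cell or neutrophil marker reached 10 counts over the pair (0 genes compared). In cultures of this kind fewer cells of a type and less RNA per cell cannot be told apart.

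The promoters of 3 STAT3 target genes are shown because they hold the letters STAT3 dimers bind, TTCNNNGAA, in the 250 bases before the transcription start, and because these genes gave different values below. The motif reads the same on both strands, it is in capitals, and sequences are 5' to 3' on the gene's strand, from RefSeq on GRCm38.p6.
Socs3, chr11:117969367-117969616, minus strand: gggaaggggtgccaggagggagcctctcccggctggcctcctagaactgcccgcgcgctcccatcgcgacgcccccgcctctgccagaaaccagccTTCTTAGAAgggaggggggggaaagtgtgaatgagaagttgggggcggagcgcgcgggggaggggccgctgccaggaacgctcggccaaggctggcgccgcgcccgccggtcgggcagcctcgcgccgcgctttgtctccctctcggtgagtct
Fgl2, chr5:21372423-21372672, plus strand: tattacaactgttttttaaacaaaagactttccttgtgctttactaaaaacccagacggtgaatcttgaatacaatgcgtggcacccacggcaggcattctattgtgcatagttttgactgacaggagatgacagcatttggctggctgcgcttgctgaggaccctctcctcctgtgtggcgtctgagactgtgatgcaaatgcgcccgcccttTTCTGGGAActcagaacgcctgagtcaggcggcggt
Irf1, chr11:53769764-53770013, plus strand: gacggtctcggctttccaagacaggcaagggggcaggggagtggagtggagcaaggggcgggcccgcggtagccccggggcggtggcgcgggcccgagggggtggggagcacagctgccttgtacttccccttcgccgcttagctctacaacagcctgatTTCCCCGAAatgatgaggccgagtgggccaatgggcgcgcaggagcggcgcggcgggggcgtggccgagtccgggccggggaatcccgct
The first base of the motif lies 154 bases before the start of Socs3, 36 before that of Fgl2 and 90 before that of Irf1. The same letters occurred in 7.02% of all 32851 promoter windows of this length in the table, and in 6 of the 31 windows that belong to 26 genes of the STAT3 target list. The remaining hits belong to Icam1 (42 bases before the start), Tnfrsf1a (244) and Zfp36 (17). A match of letters is not evidence of binding.

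The ligand-binding receptor of IL-6 was scarce in these cells while gp130 was abundant. Il6ra had 24 counts with vehicle, 8 with IL-6 and 14 with OSM. These counts equal 0.11 fpkm with vehicle and 0.034 fpkm with IL-6, and the log2 ratio of IL-6 to vehicle was -1.68 (interval -3.05 to -0.48). Il6st had 17343 counts with vehicle, 19092 with IL-6 and 13870 with OSM. Per length, Il6st stood at 61.8 fpkm with vehicle and 63.5 fpkm with IL-6, with a log2 ratio of 0.04 (0.01 to 0.07). The IL-6 receptor transcript was thus lower in the IL-6 library by counting error, on very few counts, and its widened interval, defined below, ran from -5.98 to 1.30. The gp130 transcript differed by 1.03-fold.

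Osmr, Lifr and Il11ra1, receptors that pair with gp130, were expressed at intermediate levels and close to the vehicle value. Osmr, the OSM receptor, had 1023 counts with vehicle, 1199 with IL-6 and 2929 with OSM, so that IL-6 against vehicle gave 0.13 (0.01 to 0.25). Lifr, the receptor of leukemia inhibitory factor, had 864 counts with vehicle and 805 with IL-6, a log2 ratio of -0.20 (-0.34 to -0.06). The widened intervals of Osmr and Lifr include 0. Il11ra1, the IL-11 receptor, stood at 11.1 and 10.4 fpkm. Cntfr, the ciliary neurotrophic factor receptor, was scarce, with 14 and 13 counts, and Il27ra and Il31ra had 0 in both libraries. The sheddases that release soluble IL-6 receptor, Adam10 and Adam17, had log2 ratios of -0.04 and 0.06, both with intervals that include 0.

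**Figure D1:**
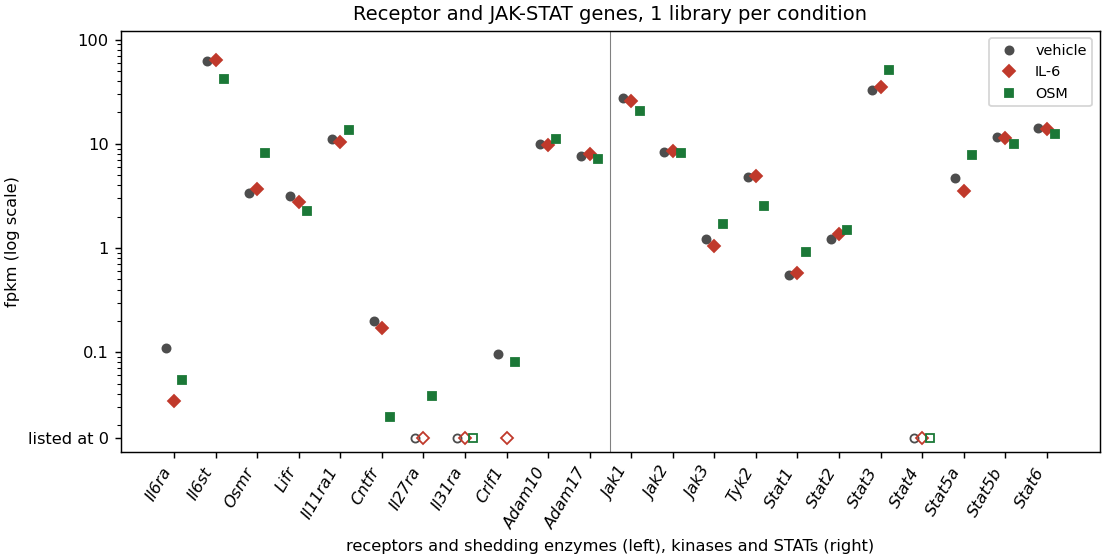
Fpkm (log scale) of receptors, sheddases, Janus kinases and STATs in the vehicle, IL-6 and OSM libraries, 1 point per library, with open symbols where a gene is listed at 0. Il6st and Stat3 stand highest and Il6ra among the lowest, and the IL-6 points lie on or near the vehicle points for genes above 1 fpkm.

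Of the ligands of the family, only Ctf2 was called, and none reached 3 fpkm. Ctf2, a cardiotrophin, had 0 counts with vehicle, 10 with IL-6 and 0 with OSM, which makes it at least 3.11-fold higher with IL-6. It overlaps Ctf1 on the opposite strand, with 36.4% of its transcript matched by Ctf1 transcripts, and no source used here states whether counting took strand into account. Ctf1 itself, cardiotrophin 1, had 107 counts with vehicle and 102 with IL-6. Endogenous Il6 had 4 counts with vehicle, 0 with IL-6 and 42 with OSM. Clcf1, Il11 and Lif gave log2 ratios of -0.41, -0.48 and -0.57, all with intervals that include 0, and Osm, Il27 and Il31 were at 0 counts in the 3 libraries.

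Calls were limited to genes with both bounds of the interval past 2-fold in one direction. With IL-6, 274 genes (1.77% of those compared) were called higher and 269 (1.74%) lower. Counting error alone is a weaker bar, and 19.6% of all compared genes had an interval wholly above 0 and 19.1% one wholly below 0. The spread of ratios over well-counted genes was wider than counting error, as described further on, and intervals widened to that spread lay wholly above 0 for 1.69% of genes and wholly below 0 for 1.5%. Counts for the gene lists are set against these shares, which cover genes of all count levels. The spread exceeded counting error by more at high counts, as given further on. For lists of abundant genes these shares are therefore too low a bar, and no share at matched counts was computed.

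The kinases and STATs were near their vehicle levels, and none of 10 compared was called. Jak1, the kinase on which gp130 signaling chiefly depends, had 4978 counts with vehicle, 5009 with IL-6 and 4492 with OSM. Its log2 ratio was -0.09 (-0.15 to -0.03), with a widened interval of -0.23 to 0.05. Stat3 had 7953 counts with vehicle, 8947 with IL-6 and 14412 with OSM. By counting error the IL-6 library lay slightly above vehicle, at 0.07 (0.03 to 0.11), but the widened interval was -0.03 to 0.17. The OSM library lay 0.55 (0.51 to 0.58) above IL-6. Jak2 and Tyk2 both gave 0.03, and Stat5b and Stat6 gave -0.01 and -0.02.

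Stat5a lay farthest from vehicle in this list. It had 850 counts with vehicle, 674 with IL-6 and 1668 with OSM, so IL-6 was the lowest library and OSM the highest. The log2 ratio of IL-6 to vehicle was -0.43 (-0.58 to -0.29), and the widened interval ended at -0.08. Stat5a lies beside Stat3 on chromosome 11 (GRCm39 chr11:100750177-100775995) and their annotated ends overlap. In all, 1 of the 10 genes lay above 0 by counting and 2 lay below.

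None of the inhibitors of the pathway was called, and Socs3, the main feedback gene of STAT3, was not above its vehicle level. Socs3 had 670 counts with vehicle, 646 with IL-6 and 18194 with OSM, or 9.16, 8.25 and 211 fpkm. IL-6 against vehicle gave -0.15 (-0.31 to 0.01), while OSM against IL-6 gave 4.67 (4.56 to 4.79). The upper bound of the IL-6 ratio was 0.01 by counting error and 0.23 when widened. Cish, another feedback inhibitor of cytokine receptors, had 151 counts with vehicle, 215 with IL-6 and 617 with OSM. It gave 0.41 (0.10 to 0.72), with a widened interval of -0.34 to 1.18. Socs1 had 4, 3 and 25 counts, and Socs2 had 315, 287 and 595.

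Pias3, which encodes a protein that binds activated STAT3 and blocks its contact with DNA, was the inhibitor farthest above vehicle. It had 288 counts with vehicle, 491 with IL-6 and 490 with OSM. Its log2 ratio was 0.67 (0.46 to 0.89), with a widened interval of 0.16 to 1.20, and the IL-6 and OSM libraries were nearly equal. Pias2 and Pias4 gave 0.24 and 0.19. Ptpn11, the phosphatase SHP2 that docks on gp130, had 11427 counts with vehicle and 11431 with IL-6, which after scaling is -0.10 (-0.14 to -0.06). Of the 14 compared inhibitors, 5 lay above 0 by counting and 1 below, and 0 were called.

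No STAT3 target gene was called with IL-6. Of 31 genes listed, 27 were compared. By counting error 9 lay above 0 and 3 below, which is 33.3% and 11.1% of the members against 19.6% and 19.1% of all compared genes, and 1 stayed above 0 with the widened interval. The median log2 ratio was 0.04, against -0.00 over all compared genes, and the same genes had a median of 1.48 for OSM against vehicle. Both medians use the same vehicle library, and the list was chosen with earlier results of these data known. The list shares Socs3 and Timp1 with the genes the study chose as higher with OSM.

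The targets that lay highest with IL-6 had few counts. Cebpd, a transcription factor of the acute phase response, had 61 counts with vehicle, 112 with IL-6 and 1288 with OSM, and its log2 ratio was 0.78 (0.31 to 1.25). Il4ra, the IL-4 receptor chain, had 123 counts with vehicle, 212 with IL-6 and 677 with OSM, a ratio of 0.69 (0.36 to 1.02). Ccl2, the monocyte chemoattractant, had 14, 29 and 60 counts, and its interval of -0.02 to 1.99 includes 0. In these genes the IL-6 library lay between vehicle and OSM. Choosing them for a high ratio over the shared vehicle library, from a list high with OSM, favors that order. The widened interval of each includes 0.

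In Irf1 and Pim1 the OSM library did not lie above IL-6 beyond counting error. Irf1, an interferon-regulated transcription factor whose promoter is printed above, had 146 counts with vehicle, 203 with IL-6 and 231 with OSM. IL-6 against vehicle gave 0.38 (0.06 to 0.69), and OSM against IL-6 gave 0.04 (-0.23 to 0.32). Pim1, a survival kinase, had 454 counts with vehicle, 606 with IL-6 and 510 with OSM. Its ratio was 0.32 (0.14 to 0.50) for IL-6, while OSM against IL-6 was -0.39 (-0.56 to -0.22). Both widened intervals of IL-6 against vehicle include 0.

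Myc was the one target whose widened interval also excluded 0. This growth-associated transcription factor had 2078 counts with vehicle, 2590 with IL-6 and 3602 with OSM. Its log2 ratio was 0.22 (0.13 to 0.30), with a widened interval of 0.02 to 0.42. Over all compared genes 1.69% passed that bar, and of the 27 targets 1 did.

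Several well-counted targets that were high with OSM had IL-6 intervals that include 0. Fgl2, a fibrinogen-like protein whose promoter is printed above, had 2353 counts with vehicle, 2614 with IL-6 and 8655 with OSM. Its IL-6 ratio was 0.05 (-0.03 to 0.13). Gadd45g, a stress-inducible growth arrest gene, had 2513, 2638 and 13082 counts, and its IL-6 ratio was -0.03 (-0.11 to 0.05). Junb, Ier3, Cebpb and Zfp36 had IL-6 ratios of 0.06, 0.01, -0.08 and 0.08, in that order, all with intervals including 0. Hif1a, Mcl1 and Tnfrsf1a were the 3 members below 0 by counting, at -0.22, -0.08 and -0.09. Vegfa, an angiogenic factor counted among STAT3 targets of the heart, had 3152 counts with vehicle, 3446 with IL-6 and 3089 with OSM.

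**Figure D2:**
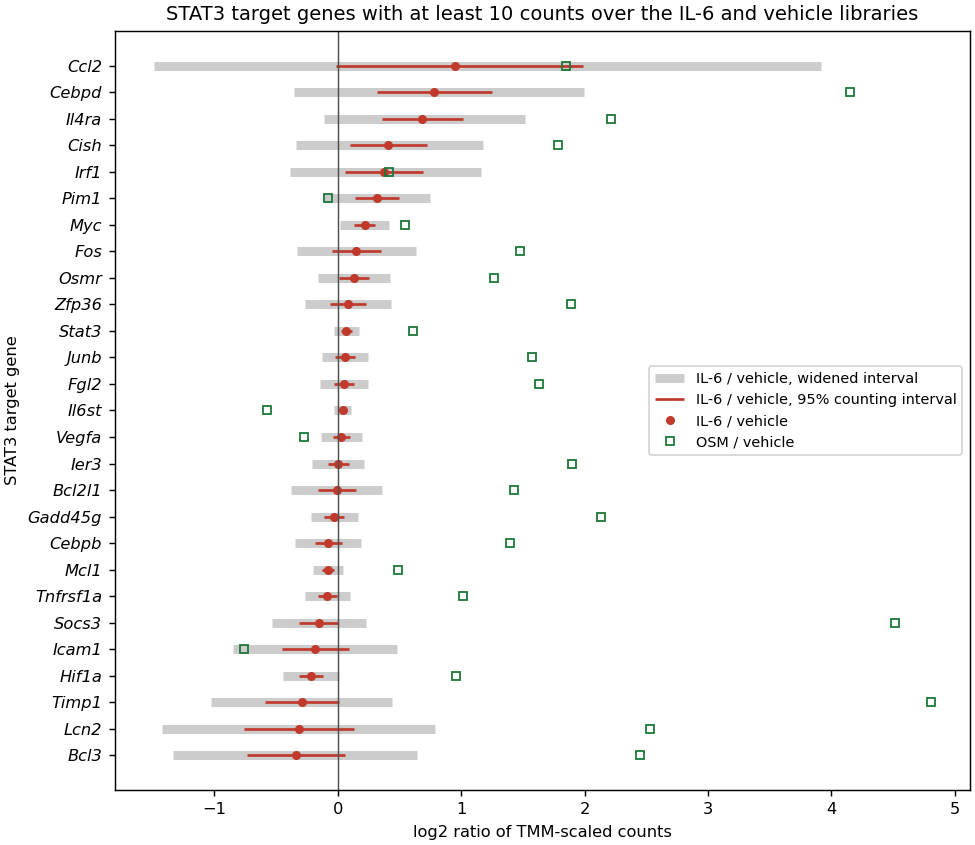
Log2 ratios of IL-6 to vehicle (red points, with 95% counting intervals in red and widened intervals in grey) and of OSM to vehicle (green squares) for the 27 STAT3 target genes compared. The IL-6 points lie between -0.34 (Bcl3) and 0.95 (Ccl2), and most OSM squares lie above 1.

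A further list holds 10 genes that the study chose as higher with OSM from the OSM and vehicle libraries used here, so their OSM values are a description. None of the 10 was called with IL-6, and 0 lay above 0 by counting error. Thbd, which encodes thrombomodulin, had 145 counts with vehicle, 165 with IL-6 and 9450 with OSM, and an IL-6 ratio of 0.09 (-0.24 to 0.42). Timp1, an inhibitor of matrix metalloproteases, had 203 counts with vehicle, 178 with IL-6 and 6739 with OSM, a ratio of -0.29 (-0.59 to 0.01). Serpinb1a, a protease inhibitor, had 106, 107 and 2289 counts. In each of these the vehicle and IL-6 libraries were near each other and the OSM library stood apart.

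Of the 10, 3 were below vehicle by counting error. Angptl4, a lipoprotein lipase inhibitor, had 411 counts with vehicle, 320 with IL-6 and 5741 with OSM, and gave -0.46 (-0.68 to -0.25). Anxa2, a membrane-binding annexin, had 395, 334 and 6813 counts and gave -0.34 (-0.56 to -0.13). Sprr1a, a stress-induced gene of cardiomyocytes, had 68, 48 and 1623 counts and gave -0.60 (-1.17 to -0.05). Their widened intervals include 0. Litaf, Rnd1 and S100a10 gave 0.02, -0.20 and -0.48, and the median over the 10 genes was -0.25 with IL-6 against 4.02 with OSM.

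Acute phase and complement genes, the classical response of liver to IL-6, were mostly silent in both libraries. Of 33 listed, 10 reached 10 counts over the pair. Serpina3n, an acute phase protease inhibitor, had 45 counts with vehicle, 90 with IL-6 and 2059 with OSM, and its log2 ratio was 0.90 (0.37 to 1.45). It and complement C2, with 1 count and 14 counts, were the 2 members above 0 by counting. The widened intervals of both include 0, and 0 members lay above 0 by that bar. Cp, the member with the most counts in these 2 libraries, had 1072 with vehicle and 1112 with IL-6. Its ratio was -0.05 (-0.17 to 0.08). C3 had 128 and 115 counts, a ratio of -0.25 (-0.63 to 0.12). Steap4, a metalloreductase, had 18 counts with vehicle, 17 with IL-6 and 2849 with OSM. Lcn2, which encodes lipocalin 2, had 95 counts with vehicle and 82 with IL-6, and Saa1, Saa2, Orm1, Hp, Fga, Fgb and Fgg had 0 in both. Serpina3n, C2, Cp, C3 and Steap4 are named here after their values were seen.

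Among 25 compared cytokines and chemokines 1 was called in each direction. Ccl7, a monocyte chemoattractant beside Ccl2, had 0 counts with vehicle, 10 with IL-6 and 38 with OSM, at least 3.11-fold higher with IL-6. Cxcl9, a chemokine that interferon gamma induces, had 12 counts with vehicle, 0 with IL-6 and 11 with OSM, at least 4.29-fold lower. Of 45 compared interferon-stimulated genes, Isg15 was called higher, with 2 counts with vehicle, 28 with IL-6 and 18 with OSM. Dhx58, a viral RNA sensor, and Gbp4, a guanylate-binding protein, were called lower, with 23 and 13 counts with vehicle against 4 and 1 with IL-6. The list had 6 genes above 0 by counting and 7 below, with a median of 0.01. Members thus lay on both sides, and the called ones had few counts.

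Called genes were mostly genes with very few counts. The median called gene had 17 counts over the pair, against 571 for the median compared gene. Of 543 called genes, 487 (89.7%) had under 50 counts over the pair and 327 had 0 counts in one library. Between 10 and 19 counts 19.1% of genes were called, and between 1000 and 3999 counts 1 gene was called in each direction. Protein-coding genes made up 51.5% of the genes called higher and 48.0% of those called lower, against 81.6% of all genes compared. In all, 19 called genes had at least 100 counts over the pair.

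**Figure D3:**
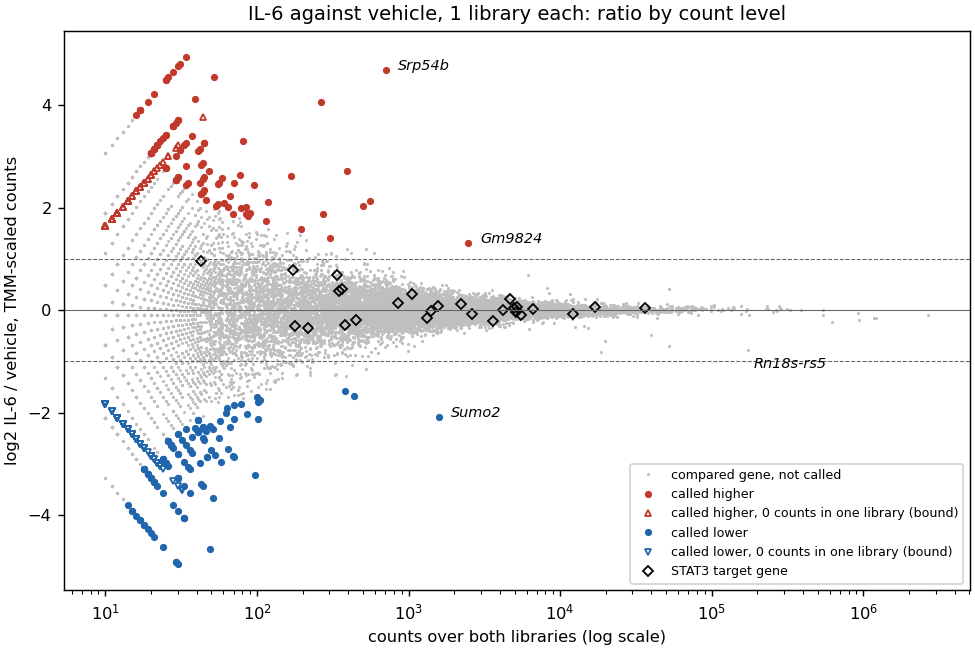
Log2 ratio of IL-6 to vehicle against counts over both libraries (log scale) for the 15472 compared genes, with called genes in red and blue, bounds for genes at 0 in one library as open triangles, and STAT3 target genes as black diamonds. Called genes crowd at the low end, and Srp54b, Sumo2 and Gm9824 are labelled, with more counts than most called genes.

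Srp54b had the largest well-counted difference among protein-coding genes. It encodes a copy of the signal recognition particle subunit that targets secreted proteins to the endoplasmic reticulum. It had 25 counts with vehicle, 686 with IL-6 and 1119 with OSM, which is 0.22, 5.61 and 8.30 fpkm, and the IL-6 ratio was 4.68 (4.10 to 5.32). Its transcript is covered in full by matches of at least 97% identity to Srp54a and to Srp54c, which lie near it on chromosome 12 (Srp54b itself at GRCm39 chr12:55201889-55236358). Srp54a had 234 counts with vehicle and 302 with IL-6, and Srp54c had 801 and 806. Summed over the 3 genes the counts were 1060 and 1794, a log2 ratio of 0.66 (0.55 to 0.77).

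Sumo2 lay lowest among protein-coding genes with at least 100 counts. This ubiquitin-like modifier had 1273 counts with vehicle, 320 with IL-6 and 1399 with OSM, so the IL-6 library alone was low. Its log2 ratio was -2.09 (-2.27 to -1.91). The pseudogene Gm10241, whose whole sequence has near-identical matches in this family, had 93 counts with vehicle, 409 with IL-6 and 280 with OSM, higher where Sumo2 was lower. Summed over Sumo2 and 6 pseudogenes the counts were 1388 and 737, a ratio of -1.01 (-1.14 to -0.88). The paralog Sumo3 gave -0.23. No source used here states how reads with several matches were assigned, so values of single members of such families are uncertain.

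Most other well-counted calls also had near-identical copies, many of them of abundant genes. Of the 19 called genes with at least 100 counts, 14 had a gene whose transcripts match at least 20% of theirs at 97% identity. Gm9824, a pseudogene of Pebp1, had 677 counts with vehicle, 1800 with IL-6 and 1179 with OSM, a ratio of 1.31 (1.18 to 1.44), while Pebp1 had 7660 and 6607. Their family sum, 8451 against 8685, gave -0.06. Gm7901, whose transcript is matched in full by Phgdh, had 14 counts with vehicle and 251 with IL-6, and Phgdh had 1644 and 1496, and the sum gave -0.01. For 9 of the 14 genes the log2 ratio summed over gene and copies was within 0.3 of 0. For 2, named after their values were seen, the summed interval stayed beyond 2-fold. Entpd4b had 22 counts with vehicle and 145 with IL-6, and its family sum gave 2.48 (1.87 to 3.14). Gm47283, a long noncoding RNA on the Y chromosome, had 49 and 343 counts. Its copy Erdr1 went the other way, with 50 and 29 counts, and their sum gave 1.81 (1.49 to 2.15). Sumo2 and Gm10241 are both among the 14 and share one sum. A sum is dominated by its most abundant member, so where that is another gene it does not show whether the called gene itself differed.

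The 5 well-counted called genes without such a copy were Nrp2, Fbxo17, 2610306M01Rik, Sox18 and Gm47155. Nrp2, a coreceptor for semaphorins and VEGF, had 46 counts with vehicle, 148 with IL-6 and 119 with OSM, a ratio of 1.59 (1.10 to 2.10). Fbxo17, an F-box protein of ubiquitin ligases, had 25, 89 and 77 counts and a ratio of 1.73 (1.08 to 2.43). The long noncoding RNA 2610306M01Rik had 21, 97 and 131 counts. In these genes the OSM library lay nearer to IL-6 than to vehicle, an order that choosing genes for low vehicle counts favors. Sox18, a transcription factor of endothelial cells, had 77 counts with vehicle, 24 with IL-6 and 64 with OSM, a ratio of -1.78 (-2.51 to -1.10), while the 12 endothelial markers had a median ratio of -0.02. Gm47155, an unclassified transcript, had 81, 20 and 49 counts. Nrp2, 2610306M01Rik and Gm47155 were named after their values were seen, as were the pseudogenes above and the family members summed.

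Other protein-coding genes that the naming rule selects, called and at 1 fpkm or more in the higher library, had 55 counts or fewer in each library. Tmem37, a calcium channel gamma-like subunit, had 2 counts with vehicle, 50 with IL-6 and 28 with OSM, a ratio of 4.54 (2.62 to 7.63). Cby3 had 0, 26 and 2 counts, which is at least 8.09-fold higher with IL-6. Acbd7 had 5, 30 and 12 counts. Alkbh2, a DNA repair dioxygenase, had 10, 45 and 40, and shares 46.1% of its transcript with Usp30, which had 606 counts with vehicle and 554 with IL-6.

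On the lower side Mybphl, a myosin-binding protein of atrial muscle, had 47 counts with vehicle, 2 with IL-6 and 53 with OSM, a ratio of -4.65 (-7.74 to -2.72). Insl6, an insulin-like peptide, had 20 counts with vehicle, 0 with IL-6 and 10 with OSM and was at least 7.14-fold lower. A930002H24Rik had 17, 0 and 8 counts and the histone gene H3c11 had 12, 0 and 7. Cib2, a calcium-binding protein, had 37, 7 and 28 counts and Alyref2, a copy of an mRNA export factor, had 33, 8 and 22. In all of these the OSM library lay above the IL-6 library, an order that choosing genes for low IL-6 counts makes likely. H3c11 is matched in full at 97% identity by 7 other histone genes, and the 8 together had 105 counts with vehicle and 109 with IL-6. 1700001K19Rik, with 55, 9 and 27 counts, shares 64.3% of its transcript with Dync1h1, a dynein heavy chain with 11170 and 12048 counts.

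The noncoding genes selected by the same rule were likewise at 0 in one library, with the exception of Gm7901. ENSMUSG00000120952, a long noncoding RNA on chromosome 3, had 0 counts with vehicle, 44 with IL-6 and 10 with OSM, at least 13.7-fold higher with IL-6. Gm5446, a pseudogene that Srsf10 matches, had 0 and 26 counts, Gm43430 had 0 and 22, and 4930431P22Rik had 0 and 21. Lower were Gm14567, a pseudogene matched by Polr2k, with 24 and 0 counts, and A330058E17Rik, ENSMUSG00000120411, Gm49083 and Gm10571, each with 22 or 23 counts with vehicle and 0 with IL-6.

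Genes with many counts differed little between the libraries. Of 6241 genes whose pair sum reached 1000 counts, 6227 (99.8%) lay within 0.5 of 0 on the log2 scale, with the 5th and 95th percentiles at -0.22 and 0.22. The 14 outside included Rn18s-rs5, an 18S ribosomal RNA locus, with 106937 counts with vehicle, 66523 with IL-6 and 131385 with OSM, a ratio of -0.78 (-0.80 to -0.77). Lars2, the mitochondrial leucyl-tRNA synthetase, gave -0.60 (-0.64 to -0.56). Larp7, Gpatch2l and Coa8 gave 0.56, 0.54 and 0.53. Genes in this paragraph were named after their values were seen.

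The spread of ratios over genes narrowed as counts rose. Among genes with 1000 to 3999 counts the robust SD of the IL-6 ratio was 0.15 on the log2 scale, where counting error gives 0.065. Over the 10928 genes with at least 100 counts the variance was 5.61 times that of counting, an SD 2.37 times as large, and this factor sets the widened intervals. They treat most genes as equal in the libraries, which was not tested. The factor was 3.40 at 10 to 19 counts, 5.10 at 100 to 199, 6.12 at 4000 to 19999 and 11.8 at 20000 counts and above. Widened intervals of the most abundant genes, such as mt-Co1, Actc1, Myl3 and Calr, are therefore narrower than the spread at their level. For OSM against vehicle, which shares the vehicle library, the factor was 12.3 at 100 to 199 counts and 220 at 4000 to 19999, and the SD of ratios stayed near 0.5 from 1000 counts up. How far replicate cultures would differ was not measured.

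**Figure D4:**
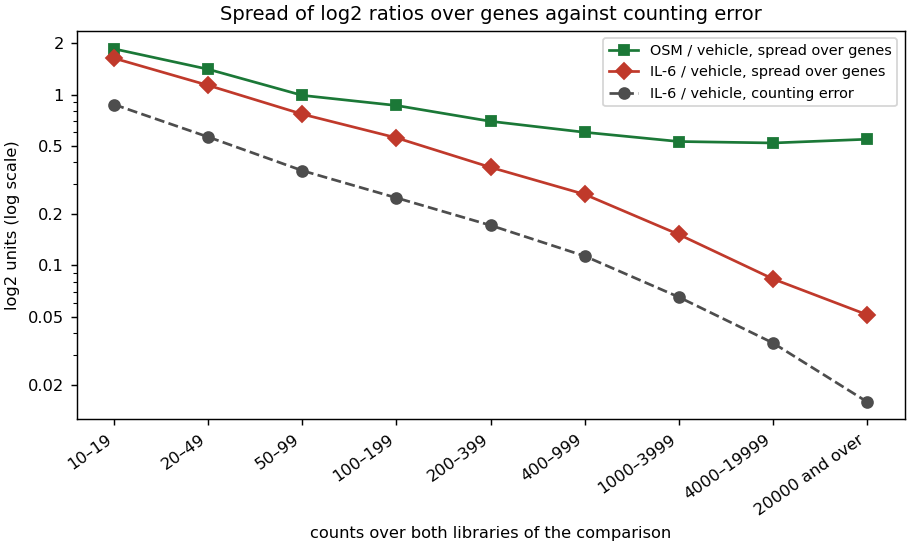
Robust SD over genes of the log2 ratio of IL-6 to vehicle (red) and of OSM to vehicle (green), with the counting error of the IL-6 ratio (grey dashes), by classes of counts over the pair (vertical axis in log2 units on a log scale). The red line falls from 1.63 to 0.05 above the dashes, and the green line levels off near 0.5.

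The IL-6 ratio hardly varied with gene properties. Over 10193 protein-coding genes with at least 100 counts, Spearman's rho across genes was -0.06 with gene length, 0.02 with GC content and 0.04 with mean fpkm. The medians of eighths by length ran from 0.02 in the shortest to -0.03 in the longest genes. For OSM the corresponding rho with length was -0.50 and medians ran from 0.44 to -0.57. Genes are not independent replicates, and these values describe the libraries.

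Mitochondrially encoded genes had the largest share of members below 0 among lists with at least 10 compared genes. Of 13, 10 lay below 0 by counting error and 3 above, and 9 and 3 did so with widened intervals, with a median ratio of -0.14. These shares were not set against other genes with as many counts. mt-Co1, a cytochrome oxidase subunit and the gene with the highest fpkm, had 1342689 counts with vehicle, 1345828 with IL-6 and 1381528 with OSM, a ratio of -0.10 (-0.10 to -0.09). mt-Atp6, a subunit of ATP synthase, had 31350, 20686 and 27195 counts, a ratio of -0.70 (-0.72 to -0.67), and mt-Atp8, which overlaps it, had 50, 23 and 58 counts. Gm28661, a pseudogene on chromosome 1 with the same listed length of 681 bases as mt-Atp6, had 11585, 7058 and 9688 counts. Its ratio was -0.81 (-0.86 to -0.77). Near-identical copies of mitochondrial genes were not sought. mt-Co3 and mt-Nd3 went the other way, at 0.42 (0.40 to 0.45) and 0.68 (0.61 to 0.76). Mitochondrial genes took 17.4% of counts with vehicle, 16.1% with IL-6 and 13.6% with OSM. Single members and Gm28661 are named after their values were seen.

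Sarcomere genes leaned upward by small amounts, while the one that was called, Mybphl, was lower. Of 32 compared, 14 were above 0 by counting and 3 below, with a median of 0.03. That is 43.8% and 9.4% of members, against 19.6% and 19.1% of all compared genes. With widened intervals 7 lay above and 2 below. No share of other genes at the same count levels was computed for comparison. Actc1, the cardiac actin, had 130307 counts with vehicle and 148426 with IL-6 (0.09, interval 0.08 to 0.10), and Myl3, a ventricular light chain, had 107960 and 122573 (0.08, 0.07 to 0.10). Myh7, the fetal myosin heavy chain, had 511 counts with vehicle, 739 with IL-6 and 791 with OSM, a ratio of 0.43 (0.27 to 0.60). The natriuretic peptides are markers of cardiac stress. Nppa had 530 counts with vehicle, 569 with IL-6 and 995 with OSM, and its IL-6 ratio of 0.00 had an interval of -0.17 to 0.18. Nppb had 3193, 3618 and 12399 counts and an IL-6 ratio of 0.08 (0.01 to 0.15), with a widened interval that includes 0. The stress list as a whole had 4 of 22 genes above 0 and 7 below.

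Genes of the unfolded protein and integrated stress response also leaned upward by small amounts. Of 37 compared, 15 lay above 0 by counting and 4 below, 6 and 0 with widened intervals, and the median was 0.03. Here too the share at matched counts is not known. Calr, the chaperone calreticulin, had 46077 counts with vehicle and 52512 with IL-6, a ratio of 0.09 (0.07 to 0.11). Ppp1r15a, which encodes the phosphatase subunit GADD34, had 3204 and 3890 counts, a ratio of 0.18 (0.11 to 0.25). Cholesterol and lipid synthesis genes leaned downward by counting, with 5 of 32 above 0, 11 below and a median of -0.05. With widened intervals 0 of them lay above and 2 below. Fasn, the fatty acid synthase, gave -0.19 (-0.26 to -0.12), and its widened interval ended at -0.02. Nuclear-encoded respiratory chain subunits had 30 of 83 above 0 by counting and 14 below, with a median of 0.02. That is 36.1% and 16.9% of members, against 19.6% and 19.1% of all compared genes. With widened intervals 1 lay above and 1 below. The share at matched counts is not known for these lists either.

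Several other lists had members on both sides. Fatty acid oxidation genes had 10 of 41 members above 0 by counting and 11 below, glycolysis genes 7 and 7 of 29, hypoxia genes 5 and 5 of 21, and cell cycle genes 6 and 9 of 33. Matrix and fibrosis genes had 8 above and 9 below of 42, with Mmp2, a gelatinase, called higher on 1 count with vehicle and 16 with IL-6. NF-kB subunits and targets had 1 above and 3 below of 17, and immediate early factors 2 and 3 of 24. KRAB and other zinc finger genes had 74 above and 67 below of 361, with 4 called higher and 2 lower. Called members of lists not described above were Msln, Th, Zfp937, Zfp551, Zfp366, Zfp454, Tas1r1 and Vmn2r53 on the higher side and Car9, Krt18, Zfp82, Zfp108, H1f1, Olfr49 and Vmn1r233 on the lower side, and none had more than 54 counts in either library.

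**Figure D5:**
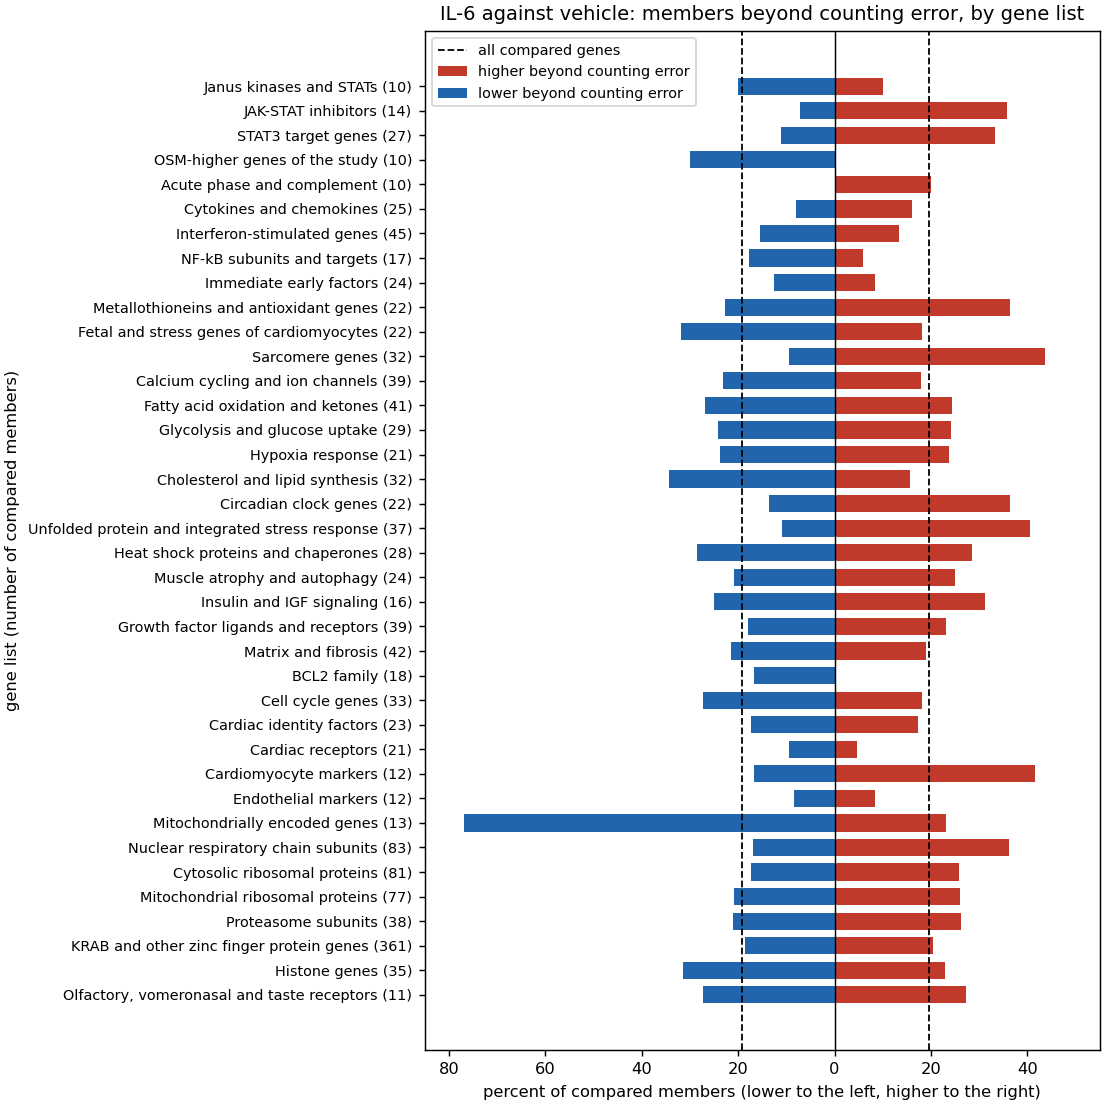
Percent of compared members of each gene list whose interval lies wholly above 0 (red, right) or wholly below 0 (blue, left) for IL-6 against vehicle, for lists with at least 10 compared members. Dashed lines are the shares of all compared genes, not matched for counts. Mitochondrially encoded genes reach 76.9% on the lower side, and the 10 OSM-higher genes have no bar on the higher side.

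Values of sex-linked genes are given because hearts of both sexes could enter the pools. Xist, the X-inactivation transcript of female cells, had 753 counts with vehicle, 725 with IL-6 and 279 with OSM. Its IL-6 ratio was -0.15 (-0.30 to -0.01) and its OSM ratio -1.68 (-1.88 to -1.48). The 4 listed Y-linked genes, which do not include Gm47283, summed to 3545, 4034 and 3346 counts. Their median ratio was 0.09 for IL-6 and -0.61 for OSM. With OSM, Xist and the Y-linked median were thus both below vehicle, while the Y-linked Eif2s3y gave 0.18. The part of pool makeup in the results was not tested.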

How the data were processed

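RNA of cultured ACMs was isolated with Trizol, pooled, and sequenced as paired reads after poly-T selection. According to the submitters' processing notes, fastp, HISAT2 2.2.1 and featureCounts 2.0.6 were used on the mm39 build, with edgeR 4.0.16, while the paper names other versions of featureCounts and edgeR. Strand use in counting and the treatment of reads with several matches are not given in the sources used here. The authors deposited raw counts for each gene together with fpkm values of the same genes. 0 columns of sample values were left unmatched. Conditions were taken from the labels, and the paper's text does not describe the IL-6 library.

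TMM factors were computed for each pair of libraries with edgeR 4.0.16 in R 4.3.3. Genes whose counts in the pair summed to at least 10 were compared. Each log2 ratio carries the 95% Clopper-Pearson interval of the IL-6 count given the sum of the pair. Calls needed both interval bounds past 2-fold in one direction. Against 0 counts a fold is a bound, set with a floor of 3 counts per library. Reads of a library are not independent molecules, so intervals and bounds cover counting error only. With 1 library per condition no test across replicates exists. Widened intervals divide both counts by the variance factor of well-counted genes (100 counts or more).

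Gene lists were described by counts and medians of compared members. Named genes were members of the ligand, receptor, kinase, inhibitor, STAT3 target and OSM-higher lists, the called protein-coding genes with at least 1 fpkm in the higher library (up to 12 in each direction by the interval bound nearest 0), 5 called noncoding genes in each direction, up to 4 called members of other lists, and the genes with the highest fpkm. Other genes were named after their values were seen. The members and lists were chosen with earlier results of these data known. Near-identical copies were sought with blastn 2.17.0 among GENCODE M39 transcripts at 97% identity, counting genes that cover at least 20% of a transcript. Calls and the variance factor were checked on simulated counts, in which only well-counted genes were changed, by known folds. That check does not bear on calls of genes with few counts, which were most of the calls. Alternatives were DESeq2 1.42.0 size factors, total counts, other minimum counts, folds and interval levels, edgeR's exact test with assumed dispersions, thinning, and removal of a gene length trend.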

Additional observations from a re-analysis of the deposited data

How the results depend on the processing

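No paired analysis was possible because each condition has 1 library. The counts of called genes, 274 higher and 269 lower, depended on the count minimum and the interval. They were 31 and 25 with at least 50 counts over the pair, 457 and 445 at 1.5-fold, 34 and 62 at 4-fold, 103 and 134 with a 99% interval, 1040 and 1023 by point estimate alone, and 141 and 129 among protein-coding genes. With biological variation assumed at coefficients of 0.1, 0.2 and 0.4, the exact test in edgeR gave 445 and 412, 112 and 125, and 1 and 0. Alternatives added after the data were seen gave 12 and 7 with at least 100 counts and 7 and 2 with widened intervals. Genes beyond counting error, 3031 higher and 2949 lower, became 261 and 232 with widened intervals. DESeq2 factors shifted all ratios by 0.0019 and total counts by 0.02 on the log2 scale, and under these, under thinning, with the length trend removed and without a count minimum, both pairs of counts stayed within 1.5 times.

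Counts summed over near-identical copies, also added later, gave 11 called genes a ratio on the other side of 0. The summed log2 ratios were -0.0336 for Ctf2, -0.14 for Alkbh2, -0.0126 for Gm7901, -0.0842 for Gm5446, 0.0036 for 1700001K19Rik, 0.20 for Gm14567, 0.0454 for Gm49083, -0.0601 for Gm9824, -0.0101 for Gm7536, -1.01 for Gm10241 and 0.26 for Gm5854. The summed interval excluded 0 only for Gm9824, Gm10241 and Gm5854 among these, and the cause was not tested. No other alternative reversed a named called gene.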
